A study of Mus musculus with 32 samples.

Results

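Crip2, Synpo and related LIM-domain genes were followed in UB/OC-1 cells, a mouse line of the organ of Corti, as the culture was moved from 33 °C to 39 °C. The set holds 7 genes of the 6137 named by a single-symbol probe set on the arrays: Crip2, Crip1, Csrp1, Csrp2, Fhl1, Fhl2 and Synpo. They were chosen by symbol, with the changes of Crip2 and Synpo from day 0 to days at 39 °C already known. Values against day 0 are therefore given for these 7 genes as a description without a test. Their tests compare days at 39 °C or the experiments with each other, and the lists of other genes were also tested against day 0. The genes are read by 12 probe sets of 13057, 11 on array design a and 1 on design b. Of these, 8 were above the floor (the 75th percentile of the size of a design's negative values, 141 for design a, 198 for design b) on at least 2 of 16 arrays, and were tested. A set that passed this filter only through the days when it was bright had to differ between days.

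LIM domains are zinc-binding modules through which proteins bind other proteins, and many LIM proteins sit on actin filaments and focal adhesions and also enter the nucleus. The Crip genes encode small cysteine-rich LIM proteins, the Csrp genes encode LIM proteins that bind the actin cross-linker alpha-actinin and zyxin, and the Fhl genes encode proteins built almost entirely of LIM domains that act as scaffolds and transcription cofactors. Synpo encodes synaptopodin, which carries no LIM domain but binds actin and alpha-actinin and is best known from the foot processes of kidney podocytes and from dendritic spines. In the organ of Corti, actin filaments form the stereocilia of hair cells and stiffen the supporting cells.

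UB/OC-1 is a conditionally immortal line, a model of the sensory epithelium as a single line: its immortalising gene is active at 33 °C and inactive at 39 °C, the temperature at which the cells differentiate. Experiment A gave RNA on day 0 at 33 °C and on days 1, 2, 3, 4, 5, 6, 7, 8, 9, 11 and 14 at 39 °C. Experiment B gave it on day 0 at 33 °C and on days 2, 4 and 9 at 39 °C. The labels name no other treatment or genotype. Temperature, time in culture and the activity of the immortalising gene cannot be told apart in a comparison with day 0. Each of the 16 combinations of experiment and day, called cultures here, has total RNA on an array of each design, 32 arrays in all, and the labels do not say whether both arrays used the same extract. For the tests, days were put into phases. Day 0 has 2 cultures, the early phase 4 (days 1 to 3), the middle phase 5 (days 4 to 7) and the late phase 5 (days 8 to 14). The labels do not say that days or experiments were separate thaws or stocks, so p-values reflect no more than the spread among these cultures, which may be technical.

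The arrays had been brought to a common level, with trimmed means of 300.4 to 300.8. The number of arrays limits the precision of every value. In experiment B the noise level, taken as the same percentile for each array, was 68 to 160 on design a against 103 to 204 in experiment A. The ratio of the 3′ to the 5′ Gapdh control probe sets, a measure of RNA quality and labelling, was 0.759 to 0.857 in B and 1.05 to 2.65 in A on the same design. The day 0 array of experiment B had the lowest mean correlation with the other arrays on both designs (0.813 and 0.823). Of 8 organ of Corti marker genes with a probe set, 5 were above the floor on at least 2 arrays (Myo7a, Myo6, Gata3, Pax2 and Eya1), and Atoh1, Gfi1 and Sox2 were above it on none. Of the 4 epithelial markers, Cdh1 and Epcam were above the floor on no array, Krt18 on all 16, and the Krt8 sets on 7 and 5.

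Crip2 and Crip1 lie on the same chromosome with 1 gene between them, and they are the neighbouring pair of the set, so an upstream sequence of each is shown. Each is the 250 bases before a RefSeq start on the plus strand of GRCm38.p6, at chr12:113139986-113140235 for Crip2 and chr12:113151762-113152011 for Crip1. Capitals mark GC boxes, searched as GGGCGG on both strands.
Crip2: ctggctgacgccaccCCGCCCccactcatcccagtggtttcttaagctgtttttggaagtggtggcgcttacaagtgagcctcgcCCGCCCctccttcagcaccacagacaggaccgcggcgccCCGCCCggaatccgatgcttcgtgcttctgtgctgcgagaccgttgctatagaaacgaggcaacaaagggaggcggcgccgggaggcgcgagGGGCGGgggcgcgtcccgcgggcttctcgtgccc
Crip1: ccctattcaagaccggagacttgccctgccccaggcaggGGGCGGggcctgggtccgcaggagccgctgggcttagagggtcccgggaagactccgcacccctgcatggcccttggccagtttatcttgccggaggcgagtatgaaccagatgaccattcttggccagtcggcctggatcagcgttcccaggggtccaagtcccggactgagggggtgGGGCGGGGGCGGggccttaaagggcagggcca
The printed Crip2 window held 4 GC boxes and the Crip1 window 3. A second Crip2 window, before another start at chr12:113140355-113140604, held 5, with 75.6% G and C and a CpG ratio of 0.845. Both printed windows were GC-rich, with 66.8% and 67.2% G and C against a median of 52.4% over 32851 mouse promoter windows of the same length. They differed in CpG content, with an observed over expected ratio of 0.933 for Crip2 and 0.467 for Crip1 and a median of 0.373 over all windows. A GC box was found in 32.7% of all windows.

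Windows were matched for 5 of the 7 genes (9 windows); Synpo and Csrp2 had no entry. A CArG box, the motif bound by serum response factor, stood 102 bases before the start in 1 of 2 Fhl1 windows and 96 and 31 bases before it in the 2 Fhl2 windows. This motif was found in 1.47% of all windows and in none of the Crip2, Crip1 or Csrp1 windows. A TATAAA on either strand was found in 1 Fhl1 and 1 Fhl2 window, against 12.4% of all windows. No window of these genes held the AP-1 motif TGANTCA, which 6.75% of all windows held. These matches describe letters in the windows and say nothing of which factor binds there.

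Crip2, a LIM protein expressed in heart and vascular cells, was read by a pair of probe sets that differed most on day 0 of experiment B. The set aa028770_s_at was low on both day 0 arrays and bright on every array at 39 °C. It read 172 on day 0 of experiment A and 78, below the floor, on day 0 of experiment B. In experiment A it then read 3134, 1370 and 3260 on days 1 to 3, 3575, 3205, 4001 and 2995 on days 4 to 7, and 3762, 2908, 2644 and 2260 on days 8, 9, 11 and 14. In experiment B it read 2342, 2220 and 1299 on days 2, 4 and 9. Both day 0 arrays lay below all 14 arrays at 39 °C, and the level was already high on day 1. Against day 0 of the same experiment the level was 7.97 to 23.3 times higher in A and at least 9.21 to 16.6 times higher in B. With the floor in place, the early mean was 15.4-fold and the late mean 15.6-fold above day 0, low estimates because B was at the floor. These became 8.83-fold and 8.97-fold with the higher floor, and 20.7-fold and 21.0-fold with the lower floor.

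The other Crip2 probe set, aa028770_i_at, carries the same sequence name and gave a smaller difference. It read 371 on day 0 in experiment A and 1452 in experiment B. In experiment A it read 3387, 1379 and 3116 on days 1 to 3, 3799, 4360, 2796 and 3192 on days 4 to 7, and 4764, 3925, 2447 and 1676 on days 8, 9, 11 and 14. In experiment B it read 4609, 5228 and 3748 on days 2, 4 and 9. Here the groups overlapped, since day 2 of A (1379) was below day 0 of B. The level was 3.72 to 12.8 times that of day 0 within A and 2.58 to 3.60 times within B, and the early mean over both was 3.90-fold above day 0. That early value was 7.71-fold without the day 0 array of B and 1.97-fold without that of A, and the late value (4.23-fold) was 8.36-fold and 2.14-fold.

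The ratio of aa028770_i_at to aa028770_s_at shows where the pair disagreed. It was at least 10.3 on day 0 of experiment B, where the divisor was below the floor, against 2.16 on day 0 of A. At 39 °C it was 1.97, 2.35 and 2.89 on days 2, 4 and 9 of B. Every array of A at 39 °C was lower, at 0.699 to 1.36, and the median over all 14 was 1.07. The lowest ratio was that of day 6 of A, which also had the highest Gapdh 3′ to 5′ ratio on design a (2.65). The part of RNA quality in the ratio was not tested. Over all 16 cultures the log2 values of the pair correlated at r = 0.77, and over the 14 at 39 °C at r = 0.37, across cultures that share the shift from day 0. Day 2 of experiment A was the lowest array of experiment A at 39 °C in both sets.

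Synpo was below the floor on both day 0 arrays, at 26 in experiment A and 36 in experiment B (probe set aa182325_s_at). In experiment A it read 772, 1862 and 2270 on days 1 to 3, 1931, 1483, 1640 and 1677 on days 4 to 7, and 1090, 1826, 718 and 1131 on days 8, 9, 11 and 14. In experiment B it read 1113, 1587 and 1456 on days 2, 4 and 9. All 14 arrays at 39 °C were above both day 0 arrays, with the lowest on day 11 of A and the next lowest on day 1. Against the floor, the level was at least 5.09 to 16.1 times higher in A and at least 7.89 to 11.3 times higher in B. The early mean was at least 9.79-fold and the late mean at least 8.42-fold above day 0. With the lower floor these bounds were 21.6-fold and 18.5-fold, and with the higher floor 5.09-fold and 4.38-fold.

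Of the 8 tested sets, these 2, Crip2 aa028770_s_at and Synpo, had both day 0 arrays below all 14 at 39 °C. Among all 7726 tested probe sets, 9.75% had day 0 outside the range of the later arrays in either direction, and 4.12% had it below. Since the genes were chosen on this contrast, nothing is read from the count. Summed levels of several marker lists moved over the same days. The sums took every probe set of a list, with negative values set to 0 and readings below the floor kept. The fibroblast list (9 genes with a probe set) summed to 537 to 1313 on day 0, 1514 to 9488 early and 6897 to 24584 late. Dcn carried most of this, with a mean of 198 (the floor) on day 0, 1390 early and 14319 late, followed by Postn (198, 374 and 814). Col1a2, Lum and Thy1 of this list were above the floor on no array. The epithelial list (4 genes) summed to 4442 to 5884 on day 0, 1746 to 4655 early and 763 to 1442 late, mostly through Krt18, with means of 4798, 2778 and 770. The smooth muscle list (5 genes) summed to 3066 to 7655 on day 0, 1536 to 5730 early and 1059 to 2317 late. Acta2 (means of 1770, 581 and 198, the floor) and Tagln (2741, 1755 and 935) carried most of this. Cnn1 and Des had late means of 210 and 253 against 191 and 243 on day 0, and Myh11 was above the floor on 1 array. On day 0, early and late, the macrophage list (5 genes) summed to 1515 to 4934, 3196 to 6671 and 3370 to 12774. Lyz2 was its brightest member, with means of 1644, 3790 and 4584, followed by Ptprc (881, 1077 and 1299) and Cd68 (164, 257 and 322). Adgre1 and Csf1r of this list were above the floor on no array. For the organ of Corti list (8 genes) the sums were 891 to 1569, 1004 to 1711 and 1805 to 2204. Gata3 changed most, with means of 198 (the floor), 287 and 595, while Eya1 went from 209 to 171 and 161. Late against day 0, 1 of the list's 7 tested sets passed, as higher (4.84% of all sets), so the sums do not describe the list as a whole. The skeletal and cardiac muscle list (11 genes) kept overlapping sums of 8412 to 12613, 7330 to 14286 and 7966 to 12792. The part of these lists in the Crip2 and Synpo levels was not tested. In bulk RNA, a change in the number of cells that express a gene and a change in RNA per cell cannot be told apart.

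Crip1, the gene near Crip2 and known from intestine, was low and uneven. Its design a set M13018_f_at read 226, 124, 320, 375, 109, 174, 375, 340, 48, 147, 570 and 328 over the 12 days of experiment A, and 29, 83, 61 and 59 over the 4 days of experiment B. The design b set read 163, 249, 175, 193, 164, 518, 490, 388, 219, 458, 1080 and 197 in A, and 27, 56, 45 and 68 in B. All 8 readings of experiment B were below the floor, and the highest of A, 570 and 1080, were those of day 11. That culture also had the highest noise level of all 16 (204 on design a, 325 on design b), whose part in the value was not tested. The other design a set, aa518990_at, was between -111 and 25 on all 16 arrays. Both names end in f_at, which marks probes common to several genes of a family, and the gene they read is uncertain. The early mean was 0.31 ± 0.60 (log2 ± SE) from day 0 for the design a set and 0.08 ± 0.57 for the design b set, with a late mean of 0.32 ± 0.58 and 0.76 ± 0.55. Unlike Crip2 aa028770_s_at, neither of these Crip1 sets had day 0 outside the range of the later days.

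Csrp1, whose product binds alpha-actinin and zyxin, was bright throughout (D88793_s_at). It read 917 and 768 on day 0 in experiments A and B. In experiment A it read 947, 903 and 683 on days 1 to 3, 709, 587, 319 and 775 on days 4 to 7, and 493, 850, 1002 and 1141 on days 8, 9, 11 and 14. In experiment B it read 1044, 686 and 1071 on days 2, 4 and 9. The lowest array, day 6 of A, also had the highest Gapdh 3′ to 5′ ratio on design a (2.65), whose part in the value was not tested. The early mean was 0.07 ± 0.37 and the late mean 0.06 ± 0.36 (log2 ± SE) from day 0. Csrp2, its close relative known from smooth muscle, was between -105 and 95 on all 16 arrays and above the floor on none.

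Fhl1, a scaffold LIM protein abundant in striated muscle, read 166 on day 0 of experiment A and 276 on day 0 of experiment B (aa522276_g_at). In experiment A it read 261, 149 and 348 on days 1 to 3, 389, 453, 658 and 519 on days 4 to 7, and 432, 551, 367 and 357 on days 8, 9, 11 and 14. In experiment B it read 302, 435 and 644 on days 2, 4 and 9. Day 0 and early arrays were the lowest, and the highest was day 6 of A. That array also had the highest Gapdh 3′ to 5′ ratio on design a (2.65), whose part in the value was not tested. The late mean was 2.14-fold and the middle mean 2.25-fold above day 0, and the early mean 1.18-fold. The other Fhl1 sets disagreed in that they gave no signal: aa522276_at ran from -65 to 76 and U77039_s_at from -76 to 8, on no array above the floor. Whether the signal of aa522276_g_at comes from Fhl1 was not tested.

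Fhl2, a cofactor that links signals from the cell surface to transcription, read 959 on day 0 of experiment A and 322 on day 0 of B (U77040_s_at). In experiment A it read 680, 657 and 375 on days 1 to 3, 364, 414, 397 and 484 on days 4 to 7, and 464, 335, 690 and 580 on days 8, 9, 11 and 14. In experiment B it read 270, 189 and 287 on days 2, 4 and 9. Within A, day 0 was the highest array, and within B too. The early mean was -0.27 ± 0.51 (log2 ± SE) from day 0. It was -1.06 without day 0 of B and 0.52 without day 0 of A, and the late mean of -0.31 ± 0.49 likewise became -1.10 and 0.47.

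**Figure D1:**
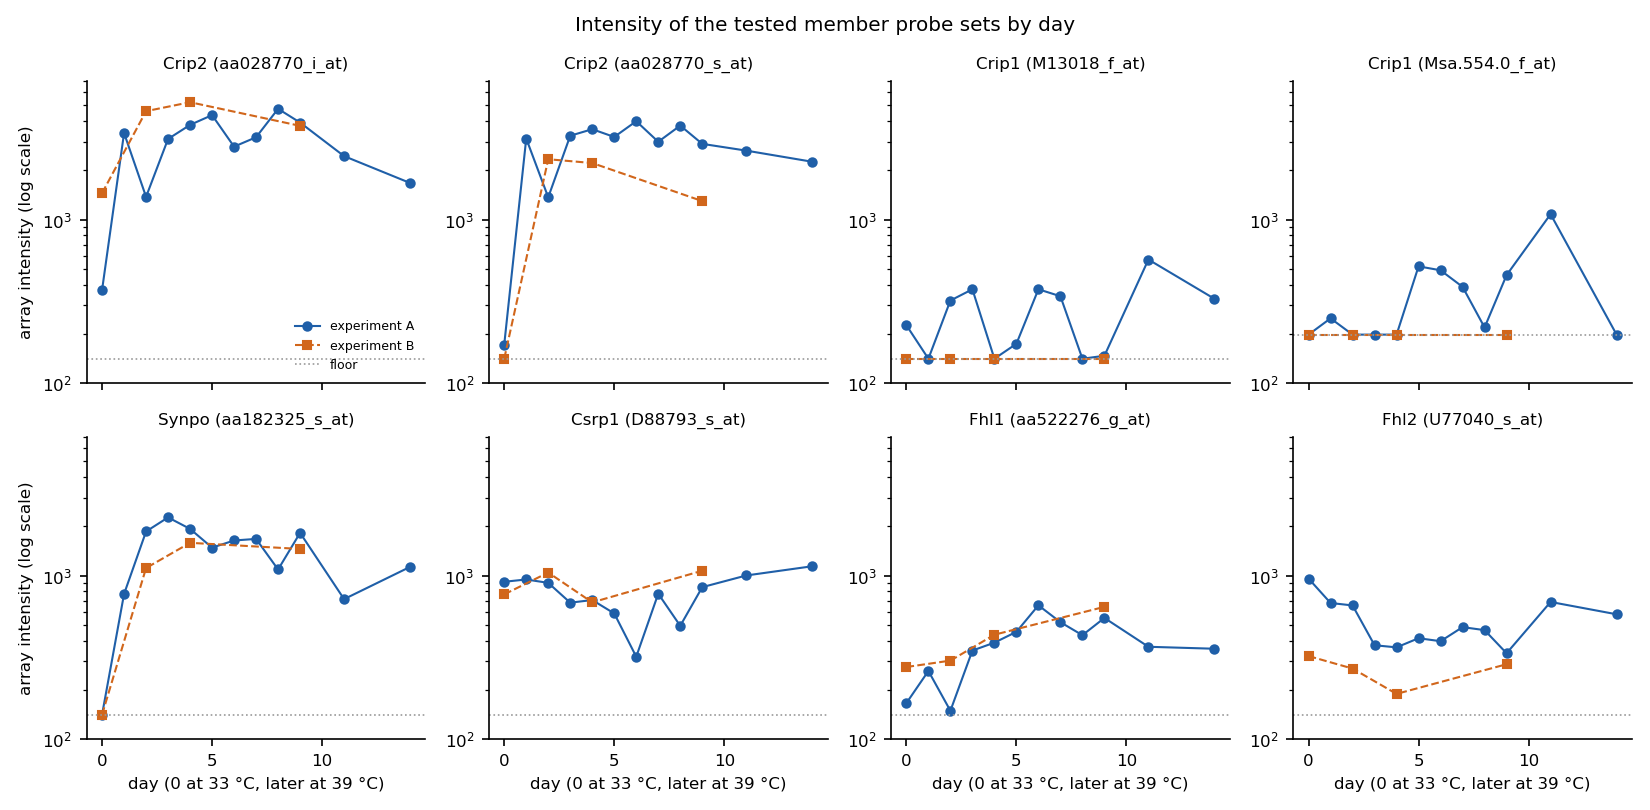
Array intensity on a log axis against day for the 8 tested probe sets. Blue circles and solid lines are experiment A, orange squares and dashed lines experiment B, the dotted line is the floor, and values below it are drawn on it. Crip2 and Synpo are high on all days at 39 °C, Fhl1 is higher from day 4 on, and Crip1 in experiment B lies on the floor throughout.

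The next comparison asked whether the genes went on changing after the first days at 39 °C, with day 0 left out of the contrasts. None of the 8 sets passed an adjusted p of 0.05 (limma, Benjamini-Hochberg over both designs) in any of the 3 comparisons. Of all 7726 probe sets, 0% were called middle against early (382 had an unadjusted p under 0.05), 0% late against middle (289) and 0.984% late against early (76 sets, 773 unadjusted). With experiment as a block the counts over all sets were 3, 4 and 184, and still none of the 8 passed. The median log2 change of the 8 sets was 0.33 middle against early, -0.02 late against middle and 0.02 late against early. Over all tested sets it was 0.02, 0.02 and 0.05.

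For Crip2 and Synpo the interval of the late minus early difference included 0. The late minus early difference was 0.02 ± 0.30 (log2 ± SE) for Crip2 aa028770_s_at, with a 95% interval of -0.60 to 0.65, and 0.12 ± 0.39 for aa028770_i_at, with an interval of -0.71 to 0.94. For Synpo it was -0.22 ± 0.30, with an interval of -0.84 to 0.41. Late against middle, Synpo differed by -0.48 ± 0.28 and Crip2 by -0.37 ± 0.28 and -0.29 ± 0.37, each with limma's adjusted p = 1.

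Fhl1, read above the floor by aa522276_g_at alone of its sets, showed the largest difference of the 8 sets between phases at 39 °C. It was 0.93 ± 0.31 higher middle than early (limma's adjusted p = 0.62) and 0.86 ± 0.31 higher late than early (adjusted p = 0.268), and neither passed over the whole table. With experiment as a block the adjusted p was 0.264 and 0.111. Its early arrays (149 to 348) lay below all middle arrays (389 to 658) and all late ones (357 to 644). It was the 1 of 8 sets without overlap in these comparisons. Of all tested sets, 1.58% did not overlap middle against early (0.828% higher) and 3.86% late against early (1.85% higher). Late against middle, 0 of the 8 sets and 0.660% of all sets did not overlap.

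Csrp1 differed by -0.59 ± 0.29 middle against early and by 0.57 ± 0.27 late against middle, and neither passed (limma's adjusted p = 1 for each). The middle arrays ran from 319 to 775 and the early ones from 683 to 1044, so the groups overlapped. Without day 6 of experiment A the differences were -0.37 and 0.35. Fhl2 differed by -0.39 ± 0.40 middle against early and -0.04 ± 0.40 late against early. The Crip1 sets differed by 0.01 ± 0.46 and 0.68 ± 0.44 late against early, and by -0.33 and 0.26 without day 11 of experiment A.

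**Figure D2:**
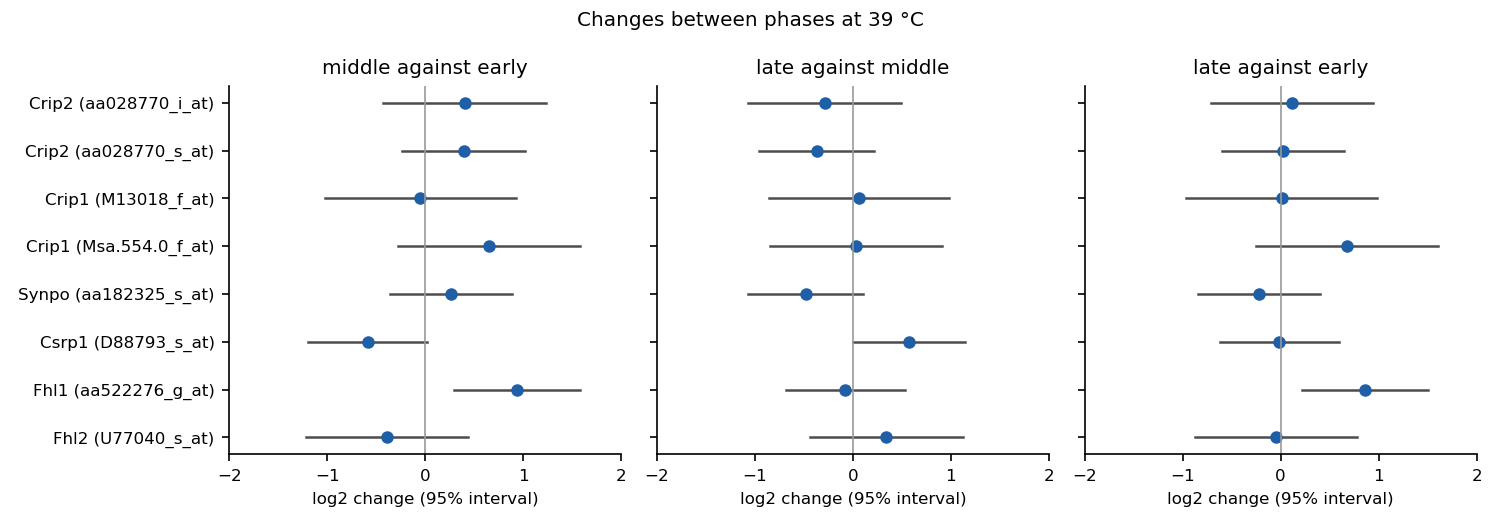
Log2 change with its 95% interval for each of the 8 tested probe sets, in the comparisons middle against early, late against middle and late against early. Fhl1 lies at 0.93 and 0.86 in the comparisons with early, with intervals above 0, and its adjusted p over the whole table did not pass.

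Experiments B and A were compared on days 0, 2, 4 and 9, which both have (n = 4 pairs, with day in the fit and 3 residual degrees of freedom). The pairs are days of 1 experiment A and 1 experiment B, and their differences correlated from day to day (r between 0.27 and 0.73). The p-values therefore describe the spread over days and not over repeats of an experiment. None of the 8 sets passed, while 9.68% of all tested sets did (748, 4.36% higher and 5.32% lower in B), and 0 sets of the table did when any single day was left out. For Fhl2 the log2 difference, B minus A, was -1.57, -1.28, -0.95 and -0.22 on the 4 days. Its mean was -1.01 ± 0.27 (limma's adjusted p = 0.0713). For Fhl1 it was 0.73, 1.02, 0.16 and 0.23, with a mean of 0.53 ± 0.23 (limma's adjusted p = 0.181). These 2 of the 8 sets kept 1 direction on all 4 days, as did 33.2% of all tested sets (15.6% higher and 17.6% lower).

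The mean differences of the Crip2 sets between the experiments had opposite signs. The set aa028770_i_at was higher in B on days 0, 2 and 4, by 3.91, 3.34 and 1.38 times, and 0.955 times A on day 9, with a mean log2 difference of 1.03 ± 0.37 (limma's adjusted p = 0.140). The set aa028770_s_at had a mean of -0.34 ± 0.32 (adjusted p = 0.496 by limma), with 1.71 times A on day 2 and 0.447 times A on day 9. Synpo differed by -0.34 ± 0.17 (limma's adjusted p = 0.241) and Csrp1 by 0.06 ± 0.16 (limma's adjusted p = 0.831). Both Crip1 sets were at the floor on all 4 days of B and passed the filter through experiment A alone, so their differences are set by the floor and are a description. For M13018_f_at the difference was -0.48, and -1.43 with the lower and -0.06 with the higher floor. With no filter Crip2 aa028770_i_at (limma's adjusted p = 0.000127) and Fhl2 (0.0226) passed. That setting adds sets above the floor on fewer than 2 arrays to the fit, 13057 sets in place of 7726. The differences stayed at 1.03 and -1.01, while the SE went from 0.37 to 0.22 for Crip2 and from 0.27 to 0.33 for Fhl2. The experiments also differed in noise level and Gapdh ratio, as given above, and the part of these in the differences was not tested.

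**Figure D3:**
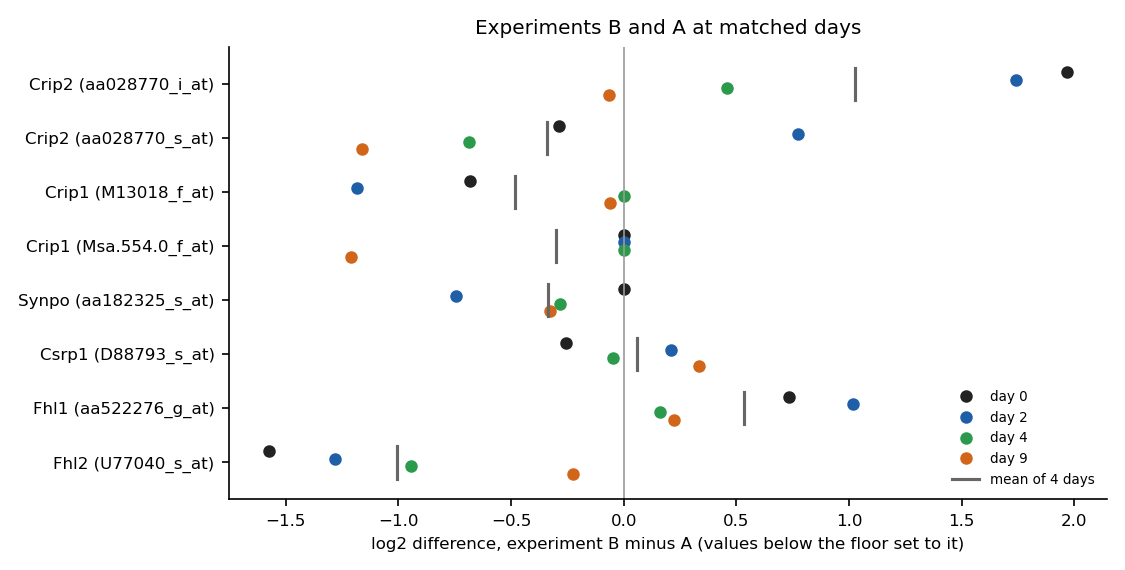
Log2 difference of experiment B minus A for the 8 tested probe sets, with 1 point for each matched day, coloured by day, and a grey bar at the mean of the 4 days. All 4 Fhl2 points lie below 0 and all 4 Fhl1 points above it, and the Crip2 aa028770_i_at difference runs from 1.97 on day 0 to -0.07 on day 9.

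Of the list of other LIM-domain genes, 0 of the 16 tested sets passed as higher early or late against day 0. Among all tested sets 1.45% did so early and 4.84% late, so nothing is read from this count. Of 60 listed genes 20 had a probe set, and 6 of those (Lhx1, Lhx5, Lhx8, Lmo7, Pdlim4 and Pdlim7) were above the floor on no array. Early against day 0, 0 of 16 sets passed, against 3.49% of all tested sets (1.45% higher and 2.05% lower), and the list's median log2 change was 0.05, as was that of all tested sets. The largest increases, of Lmo4, a nuclear LIM-only cofactor (1.54 ± 0.59, limma's adjusted p = 0.218), and of Lima1, which bundles actin (1.34 ± 0.49, limma's adjusted p = 0.187), did not pass. With experiment as a block Lmo4 passed at 2.30-fold (limma's adjusted p = 0.0476).

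Late against day 0, 2 of the 16 sets fell and none rose, against 6.08% lower and 4.84% higher among all tested sets. Zyx, which encodes the focal adhesion protein zyxin, had a mean level of 5560 on day 0, 2377 early, 1763 in the middle days and 1175 late. It fell 4.73-fold (log2 -2.24 ± 0.39, limma's adjusted p = 0.00087). Pdlim1, which encodes a partner of alpha-actinin on stress fibres, went from 2095 to 893, 378 and 281 and fell 7.47-fold (-2.90 ± 0.53, limma's adjusted p = 0.00127), a low estimate since 1 late array was at the floor. Both passed in all 23 alternatives run. With experiment as a block Fhl3, an Fhl relative found in skeletal muscle, also fell (2.63-fold, limma's adjusted p = 0.00764). The list's median was -0.09, and 0.11 over all tested sets.

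Late against early, 0 of the 16 sets passed (0.984% of all sets, 0.557% lower), and with experiment as a block Fhl3 (2.62-fold lower, limma's adjusted p = 0.00773) and Pdlim1 (3.13-fold lower, limma's adjusted p = 0.0362) did. Between the experiments, 2 of the 16 passed (9.68% of all sets): Fhl3 was 2.22-fold and Lmo4 2.79-fold lower in B (limma's adjusted p = 0.0286 and 0.0499), the latter a low estimate with 2 of 4 arrays of B at the floor. Neither passed when any single day was left out.

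**Figure D4:**
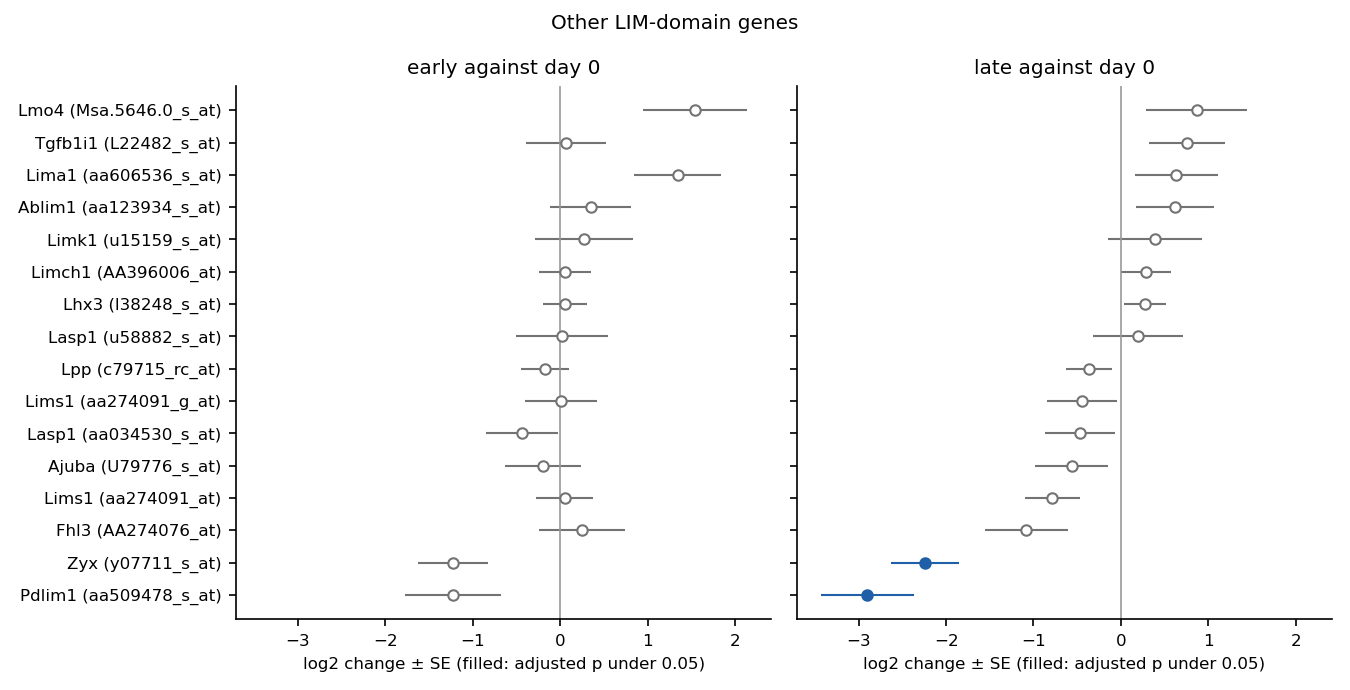
Log2 change ± SE from day 0 for the 16 tested probe sets of other LIM-domain genes, early on the left and late on the right, with filled points where limma's adjusted p was under 0.05. Late, Zyx (-2.24) and Pdlim1 (-2.90) are filled, and no set passed as higher.

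The actin filament list, which holds alpha-actinins, partners of Csrp and Synpo products, among other actin genes, had 4 members that fell late. Of 33 listed genes 20 had a probe set, with 25 sets tested. Early against day 0, 0 of 25 passed (3.49% of all sets). Late, 4 of 25 fell and none rose (6.08% and 4.84% of all sets), with a median log2 change of -0.52 against 0.11 over all tested sets. Tagln2, a transgelin that binds actin, fell 5.15-fold (limma's adjusted p = 0.000653). Tpm1, a tropomyosin, fell 2.00-fold (limma's adjusted p = 0.00593) and Actn1, which encodes an alpha-actinin, 2.52-fold (limma's adjusted p = 0.0446). Tagln, a smooth muscle transgelin, fell 2.93-fold (limma's adjusted p = 0.048). Of 23 alternatives, the call held in 23 for Tagln2, 22 for Tpm1, 9 for Actn1 and 6 for Tagln. A Myh9 set of design b also fell with the block (1.76-fold, limma's adjusted p = 0.0254).

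Late against early, Tpm1 was the 1 of 25 sets that passed (0.984% of all sets, 0.557% lower), with mean levels of 4907 on day 0, 5877 early, 3260 in the middle days and 2455 late. It fell 2.39-fold from early to late (limma's adjusted p = 0.00255) and passed in all 23 alternatives. With experiment as a block Tagln2 (2.30-fold) and Tpm4 (1.81-fold) fell as well (limma's adjusted p = 0.0415 and 0.0286). Between the experiments 4 of the 25 sets passed (9.68% of all sets). Rock1, a kinase that drives stress fibre contraction, was 2.21-fold higher in B (limma's adjusted p = 0.0367). Of 3 Myh9 sets, of nonmuscle myosin, 2 were lower in B (1.46-fold and 1.86-fold; limma's adjusted p = 0.0484 and 0.0296), and the third was not called (1.08 times A, limma's adjusted p = 0.445). The fourth call was Rhoa, a GTPase upstream of Rock1, which was above the floor on the 4 arrays of B alone (380 to 588). It passed the filter through them, so its difference (at least 3.55-fold, and at least 1.85-fold to 5.85-fold over the alternatives) is a description.

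Of the transcription partners of Csrp and Fhl proteins, 6 of 8 listed genes had a probe set and 7 sets were tested. None passed early or late against day 0 or between phases at 39 °C. Between the experiments 3 of the 7 passed (9.68% of all sets). Ctnnb1 (beta-catenin) was 2.71-fold higher in B (limma's adjusted p = 0.0245). Gata4 and Creb1 were at the floor on all 4 arrays of B and passed the filter through experiment A alone, so their differences are set by the floor. They were at least 2.20-fold lower for Gata4 and 1.61-fold for Creb1, and moved from 1.23-fold to 4.86-fold and from 1.00-fold to 2.01-fold over the alternatives. Each call of these 3, like those of Rock1, Rhoa and Myh9, was lost when any single day was left out.

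The genes most like Crip2 and Synpo were named by the Pearson correlation of log2 values over the 16 cultures, given as a description since all cultures share the step from day 0. For Crip2 aa028770_i_at, the brighter set, among 3736 sets compared, the closest was Prkar1a, a regulatory subunit of protein kinase A (r = 0.90, and 0.79 over the 14 cultures at 39 °C). H2az2, a histone variant (0.89, and 0.79), Selenok, a selenoprotein (0.86, and 0.62), Ap3d1, an adaptor of vesicle transport (0.85, and 0.78), and Chmp2a, of the ESCRT machinery (0.85, and 0.48), followed. These names belong to aa028770_i_at, which correlated with aa028770_s_at at r = 0.37 over the 14 cultures at 39 °C. No such list was made for aa028770_s_at.

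For Synpo, among 3737 sets, the closest was Tgfb3, a transforming growth factor (r = 0.95, and 0.78 at 39 °C). Cpt1a, which brings fatty acids into mitochondria (0.95, and 0.89), Plxnb2, a semaphorin receptor (0.93, and 0.77), Ctsa, a lysosomal protease read by an f_at set (0.93, and 0.67), and Agrn, of the basement membrane (0.93, and 0.69), followed. Crip2 aa028770_s_at and Synpo correlated at r = 0.88 over the 16 cultures and at -0.03 over the 14 at 39 °C.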

How the data were processed

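The deposited values are array intensities on a linear scale, scaled by the authors to a common level as the values show, and can be negative. Which software and background method produced them is not given in the sources used here. Gene symbols came from the platform annotation. The 61 control probe sets per design were left out. Values below a floor, the 75th percentile of the absolute negative values of a design, were set to it before log2, and a set was tested if above it on at least 2 of 16 arrays (7726 sets, 4294 on a and 3432 on b). A fold from a group wholly at the floor is a lower bound.

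Models were fitted per design with limma 3.58.1 in R 4.3.3 (lmFit, eBayes with trend and robust), with Benjamini-Hochberg adjustment over both designs, a threshold of 0.05 and two-sided tests. The phase fit used all 16 arrays per design (12 residual degrees of freedom). Scripts were tested on simulated data. Since days stand in for samples, the spread of a phase holds any trend inside it. The differences B minus A correlated from day to day (r between 0.27 and 0.73, 6 day pairs per design), so the shared experiment label pairs the samples, and blocked values are given where a call or count changes. Alternatives were a lower (50th percentile) and a higher floor (90th), no filter, eBayes without trend and robust, quantile normalization, the block, experiment A alone, and leaving out each culture.

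All member sets are described. Of the lists, sets past the threshold are named, at most 6 per list and comparison by size of change, otherwise the brightest, and the 5 sets most correlated with Crip2 and with Synpo. Lmo4 and Lima1 early were named after their values were seen. Members and lists were chosen with earlier results of these data known.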

Additional observations from a re-analysis of the deposited data

Results flagged for a closer look

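Of 24 groups of 4 or 5 arrays screened for a lone high or low array, 1 was flagged. The Crip1 set of design b read 249 on day 1 of experiment A. The other 3 early arrays read 175, 193 and 56 and were set to the floor of 198 before the screen. With the other values equal, any value above the floor is flagged, so nothing is read from this flag. The rate of about 1 in 20 groups picked out by chance does not cover values tied at the floor.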

How the results depend on the processing

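With experiment as a replicate block, the number of probe sets called was 469 early against day 0 (270 without it), 3 middle against early, 4 late against middle and 184 late against early (76 without it), with 1117 late against day 0 (844 without it), and it changed no call of the 8 sets. In experiment A alone the counts were 173 early and 555 late against day 0, 2 late against middle and 31 late against early. Middle against early, 2 sets were called with the lower floor and 3 with eBayes without trend and robust. Late against early, 40 were called with no filter. Between the experiments, 477 were called with the higher floor and 1433 with no filter, against 748. Leaving out 1 culture at a time gave 126 (without day 0 of experiment B) to 338 early and 402 (without the same array) to 929 late against day 0, 0 to 26 (without day 3 of A) middle against early, 0 to 3 late against middle, and 30 (without day 2 of A) to 118 (without day 3 of A) late against early. Leaving out a matched day gave 0 to 0 between the experiments. The split early against day 0, 112 higher and 158 lower, was 121 and 98 with the lower floor, 87 and 210 with the higher floor and 43 and 130 in experiment A alone. Calls among the 8 sets, 0 of 32 tests, were 1 with the lower floor (Crip1, which passed the filter through experiment A alone) and 2 with no filter, all between the experiments, and 0 in every other alternative run. The cause of these shifts was not tested.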
